A study of Drosophila melanogaster with 2 samples.

Results

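The enteroendocrine fate regulators described here are 9 genes, chosen by name from what is known of them in the fly gut and nervous system, among 9607 genes measured. They are pros, sc, ase, phyl, ttk, tap, robo2, Poxn and mirr, and all 9 were found in the expression table. The cells came from the midguts of Drosophila melanogaster females of the Canton S strain, wild type, in 2 droplet libraries of single-cell RNA (10x Genomics v3.1 chemistry). The day 3 library was made from flies 3 days old and held 1473 cells with a median of 32121 unique molecular identifiers (UMIs, tags that mark single captured transcripts) per cell. The day 1 library was made from flies 1 day old and held 2711 cells with a median of 25935 UMIs. Each age had 1 library, so age and library cannot be told apart, no difference has a replicate check and no p-value was computed.

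The authors' 10 annotated classes were used: the enteroendocrine classes AstC+EE and Tk+EE, the stem cell classes ISC1 and ISC2, the enteroblast classes EB1, EB2 and EB3, and the enterocyte classes EC-like, apEC and mEC. Because the classes were made by clustering these same cells, differences between classes are a description. UMI counts were rebuilt from the deposited depth-corrected values for cells of at most 28085.5 UMIs, the median depth, which were 616 cells of the day 3 library and 1476 of the day 1 library. These included 29 of 32 AstC+EE cells at day 3 and 32 of 36 at day 1, and 30 of 30 Tk+EE cells at day 3 and 23 of 24 at day 1. A level is the mean over cells of UMIs per 10000 UMIs of the cell, and levels are compared between cells, never between genes. Intervals are exact 95% intervals and cover counting error only. Where intervals are said to overlap, this does not show that the shares are alike. The libraries shared 1 cell barcode, and every deposited cell carried a singlet call.

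Enteroendocrine cells release peptide hormones from the gut epithelium and arise from intestinal stem cells. In the fly midgut, a pulse of the proneural factors of the achaete-scute complex in a stem cell or its daughter turns on pros, whose product drives the enteroendocrine program, and weak Notch signalling permits this fate while strong Notch signalling directs a daughter to become an enterocyte. The subtypes are told apart by their peptide hormones and by transcription factors that act late, among them mirr in the cells that make tachykinin.

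The class labels were set against their markers first. Tk, the tachykinin gene, was detected in all 30 Tk+EE cells at day 3 and all 23 at day 1, and its level was 165 and 150 UMIs per 10000 at day 3 and day 1. AstC, the allatostatin C gene, averaged 279 per 10000 in AstC+EE cells at day 3 and 205 at day 1. It was, however, detected in 17 of 29 AstC+EE cells at day 3 and in 11 of 32 at day 1, so the name of that class goes by only part of its cells. In Tk+EE cells AstC had a level of 2.30 per 10000 at day 3 and 2.81 at day 1.

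Of the 9 genes, 7 had their highest class level, as the mean of both libraries, in an enteroendocrine class, where 34.1% of 7592 genes tested did. These were pros, sc, ase, phyl, tap and Poxn, with AstC+EE on top, and mirr, with Tk+EE on top. The others were ttk, highest in EB2, and robo2, highest in EB1.

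**Figure D1:**
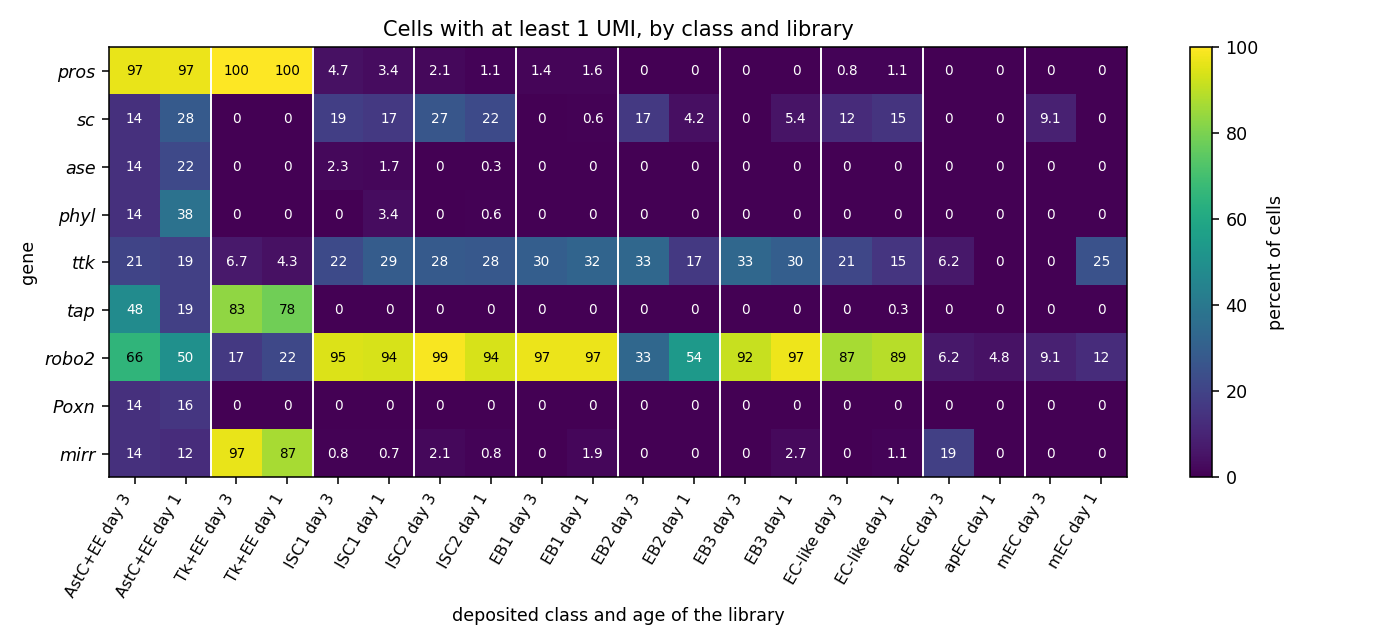
Percent of cells with at least 1 UMI of each gene (rows) in each of the 10 classes, day 3 left of day 1 (columns); colour and printed value give the same percent, of cells up to the median depth. Only pros was detected in nearly all cells of both enteroendocrine classes, while sc, ase, phyl and Poxn had 0 cells in Tk+EE and mirr reached 96.7% and 87.0% there.

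pros encodes the homeodomain factor Prospero, the defining regulator of enteroendocrine identity. Its level in AstC+EE cells was 15.7 UMIs per 10000 at day 3 (SD over cells 11.004, n = 29 cells) and 8.23 at day 1 (SD 6.001, n = 32 cells). In Tk+EE cells it was 11.8 at day 3 (SD 7.58, n = 30 cells) and 9.71 at day 1 (SD 9.24, n = 23 cells). It was detected in 28 of 29 and 31 of 32 AstC+EE cells at day 3 and day 1, and in every Tk+EE cell of both libraries. The cells of all 4 combinations overlapped, with highest values of 39.2 and 30.7 in AstC+EE and 24.3 and 38.2 in Tk+EE cells at day 3 and day 1. With 0.1 per 10000 added to each mean, the log2 ratio of day 3 to day 1 was 0.93 in AstC+EE and 0.27 in Tk+EE cells, both under 2-fold. Outside the enteroendocrine classes the highest level was that of ISC1, 0.0282 at day 3 and 0.108 at day 1.

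tap encodes a bHLH factor of the neurogenin family. It was rare outside the enteroendocrine classes. Up to the median depth, 1 UMI was found in 1 EC-like cell at day 1, and 0 UMIs in ISC1, ISC2, EB1, EB2, EB3, apEC and mEC cells of both libraries. Including cells above the median depth, it was found in 2 of 625 stem cells at day 3 and 0 of 951 at day 1, and in 1 of 592 and 4 of 1248 cells of EB1, EB2 and EB3 joined. In Tk+EE cells its level was 3.43 per 10000 at day 3 (25 of 30 cells) and 3.84 at day 1 (18 of 23 cells). In AstC+EE cells it was 6.90 at day 3 and 2.83 at day 1. The AstC+EE cells fell into cells with tap and cells without, with tap in 14 of 29 at day 3, 48.3% (interval 29.4 to 67.5), while day 1 had 6 of 32, 18.8% (7.21 to 36.4), and the intervals overlapped. Among those with tap the level was 14.3 at day 3 and 15.1 at day 1. The AstC+EE cells of the libraries also stood apart in the share of counts in ribosomal genes, with a median of 30.6% at day 3 and 47.3% at day 1, and the part of this in the tap values was not tested.

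mirr encodes a homeodomain factor of the Iroquois group. It was detected in 29 of 30 Tk+EE cells at day 3 and 20 of 23 at day 1, with levels of 5.43 per 10000 at day 3 (SD over cells 3.27) and 5.54 at day 1 (SD 4.47). In AstC+EE cells its level was 0.814 at day 3 (4 of 29 cells) and 0.829 at day 1 (4 of 32 cells), and a single cell held 53.0% and 52.5% of it. The log2 difference of AstC+EE over Tk+EE was -2.60 at day 3 and -2.60 at day 1. Of the 9 genes, mirr was the 1 that was at least 2-fold lower in AstC+EE cells in both libraries, against 3.24% of 6382 genes tested. Besides these classes, mirr had 9 UMIs in 3 of 16 apEC cells at day 3 and 0 UMIs in 21 apEC cells at day 1.

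**Figure D2:**
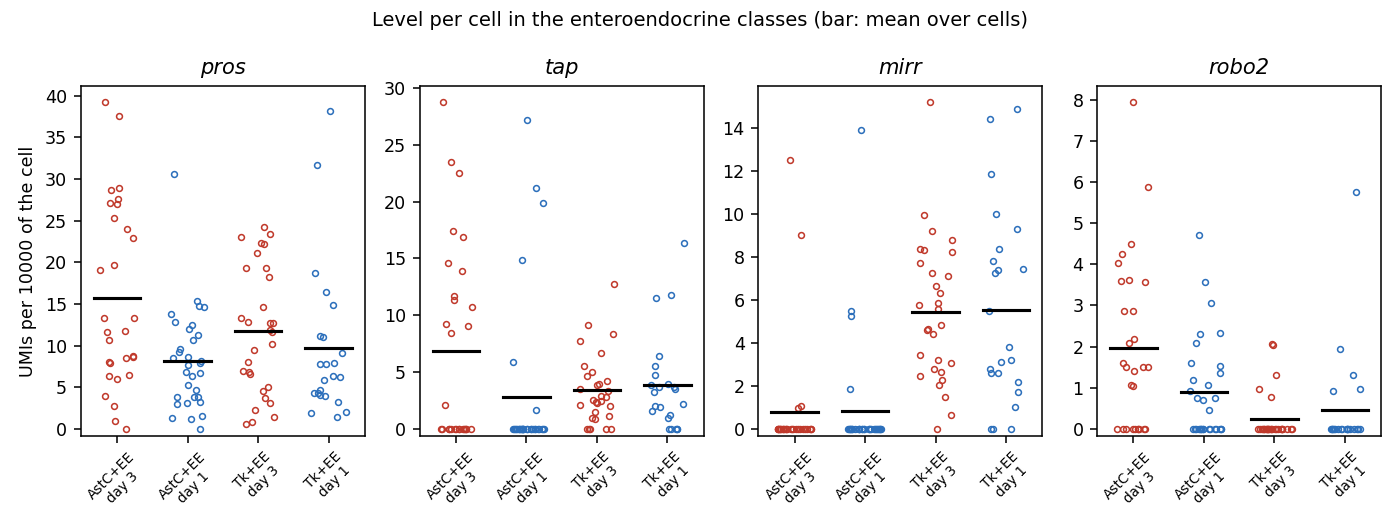
UMIs per 10000 of each AstC+EE and Tk+EE cell (circles) for pros, tap, mirr and robo2, day 3 (red) left of day 1 (blue) in each class; black bars are means over cells. For tap the AstC+EE cells split into cells at 0 and cells with high values, and mirr is high in Tk+EE cells of both libraries.

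The proneural genes were confined, among enteroendocrine cells, to AstC+EE. sc, the scute gene of the achaete-scute complex, had a level of 0.269 per 10000 in AstC+EE cells at day 3 (12 UMIs in 4 of 29 cells) and 0.541 at day 1 (19 UMIs in 9 of 32 cells). ase, asense, a gene of the same complex that marks neural precursors in other fly tissues, had levels of 0.289 at day 3 (12 UMIs, 4 cells) and 0.355 at day 1 (16 UMIs, 7 cells). Neither gene had a UMI in Tk+EE cells, in 30 cells at day 3 and 23 at day 1; 0 cells allow a share of cells with a UMI of up to 10.0% at day 3 and 13.04% at day 1 at 3 counts, or 11.6% and 14.8% by the exact interval. These limits are on cells with a UMI, not on cells that express the genes.

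phyl, phyllopod, encodes the adaptor that brings the repressor Tramtrack, the product of ttk, to the ubiquitin ligase Sina. It had 4 UMIs in 4 of 29 AstC+EE cells at day 3 and 15 UMIs in 12 of 32 at day 1, and 0 UMIs in Tk+EE cells of both libraries. Its level in AstC+EE cells was 0.0948 per 10000 at day 3 and 0.424 at day 1. Poxn, a paired-box factor best known from sense organs, had a level in AstC+EE cells of 0.118 at day 3 (4 UMIs, 4 cells) and 0.246 at day 1 (7 UMIs, 5 cells). Up to the median depth it had 0 UMIs in each of the other 9 classes in both libraries; above that depth it was found in 1 ISC1 cell at day 1 and 1 apEC cell at day 3.

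With the same 0.1 added, sc, ase and Poxn were at least 2-fold higher in AstC+EE than in Tk+EE cells in both libraries, 3 of 9 genes against 7.36% of 6382 genes tested. Their log2 differences at day 3 were 1.88 for sc, 1.96 for ase and 1.12 for Poxn, and those at day 1 were 2.68, 2.19 and 1.79 in the same order. These rest on 4 to 19 UMIs per library against 0, and the size of each depends on the value added: with 1 added, the count was 0 of 9. phyl had 0.96 at day 3 and 2.39 at day 1.

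ttk, whose product represses enteroendocrine fate in stem cells, was found at low levels in every class. Its level was 0.198 at day 3 and 0.167 at day 1 in AstC+EE cells, and 0.0819 and 0.0535 in Tk+EE cells (2 UMIs at day 3 and 1 at day 1). In ISC1, ISC2 and EB1 the levels lay between 0.137 and 0.201 at day 3 and between 0.194 and 0.207 at day 1. The top place of EB2 rested on 5 UMIs in 2 of 6 cells at day 3, a level of 1.44, while EB2 at day 1 had 0.104 in 24 cells.

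robo2 encodes a receptor for Slit, through which enteroendocrine cells are known to restrain the making of more of their kind. It was detected in 97.2% of stem cells (ISC1 and ISC2 joined) at day 3 and 94.0% at day 1, and in 92.0% and 94.3% of EB1, EB2 and EB3 cells joined. Its levels were 3.47 and 2.92 in EB1 at day 3 and day 1, 3.39 and 2.88 in ISC2, and 2.49 and 2.23 in ISC1. In AstC+EE cells it was 1.97 at day 3 and 0.889 at day 1, and in Tk+EE cells 0.239 and 0.474. In apEC and mEC cells it was between 0.0361 and 0.1004. The ligand gene sli was highest in Tk+EE cells, at 3.24 at day 3 and 2.44 at day 1, with 2.51 and 1.91 in AstC+EE cells, and the class next in order, EB3, had 0.687 as the mean of both libraries. The gene of another Slit receptor, robo1, was 0.613 and 0.522 in AstC+EE and 0.379 and 0.348 in Tk+EE cells at day 3 and day 1.

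Within the AstC+EE class tap lay mostly in other cells than sc, ase and phyl. Over all 68 cells of both libraries, including those above the median depth where any deposited value above 0 was counted, 23 held sc, ase or phyl and 40 held tap, Poxn or mirr. Only 5 cells held genes of both sets and 10 held none. By library, sc, ase or phyl were found in 7 of the 32 day 3 cells and 16 of the 36 day 1 cells, and tap, Poxn or mirr in 22 and 18 of them. pros was present in all 23 cells of the first set and in 39 of the 40 of the second.

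The overlap inside the first set was large. ase was found with phyl in 10 cells, which are 90.9% of the 11 cells with ase and 62.5% of the 16 with phyl. sc was found in 7 of the 11 ase cells. By contrast tap, present in 23 cells, shared 0 cells with ase, 0 with phyl, 0 with Poxn, 1 with sc and 2 with mirr. Poxn and mirr were found in 10 cells each. Poxn shared 0 cells with sc, 0 with ase and 2 with phyl, and mirr shared 2, 1 and 0 in the same order. Of the 68 cells sc was in 15 and phyl in 16, so Poxn and mirr cannot be said to lie apart from these. In Tk+EE cells, 53 of 54 held tap, Poxn or mirr and 0 held sc, ase or phyl. There tap and mirr shared 41 cells, 93.2% of those with tap and 82.0% of those with mirr. Over all Tk+EE cells mirr was found in 92.6% and tap in 81.5%, so this sharing was near the class shares.

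**Figure D3:**
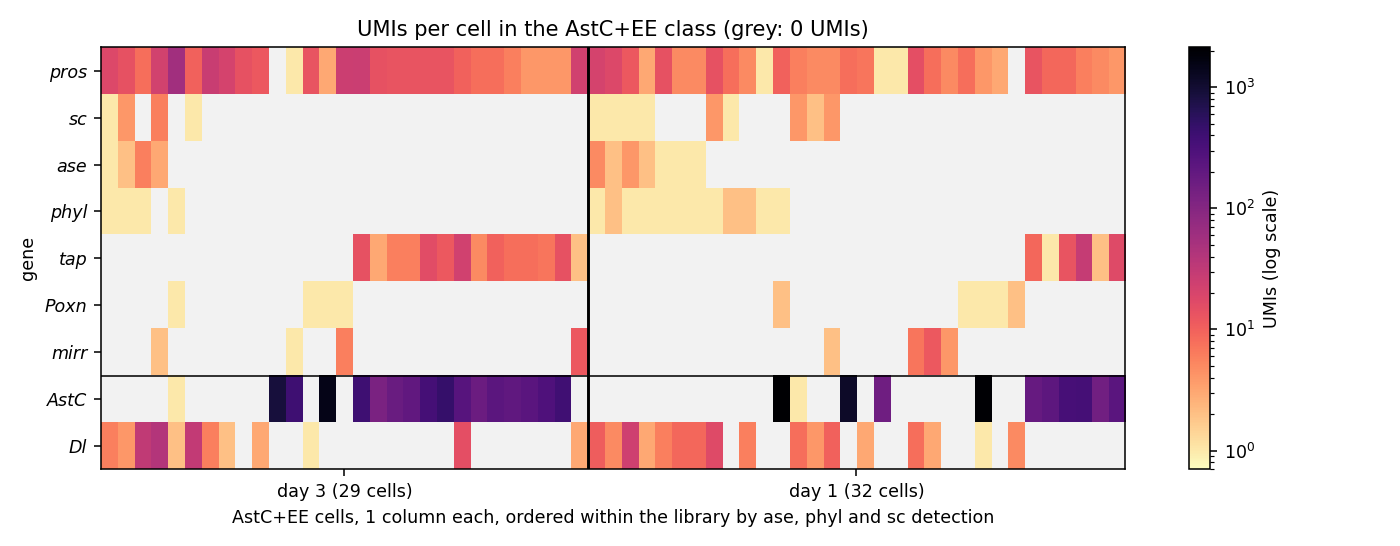
UMIs per cell (colour, log scale; grey is 0 UMIs) of 7 regulators, with AstC and Dl below the line, in the 61 AstC+EE cells up to the median depth; each column is 1 cell, day 3 left of the black line and day 1 right of it. Cells with ase or phyl stand at the left of each library without tap and mostly without AstC, and 19 of the 20 tap cells at the right carry AstC.

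The cells with ase or phyl also differed from their classmates in hormone and Notch pathway genes. There were 17 such cells, 5 at day 3 and 12 at day 1, against 44 AstC+EE cells with neither, 24 at day 3 and 20 at day 1. This division was chosen after the values were seen. AstC was found in 1 of 5 ase or phyl cells at day 3, with 1 UMI, and in 1 of 12 at day 1, with 2134 UMIs. It was found in 16 of 24 and 10 of 20 of the cells with neither. 7B2, a chaperone of the enzyme that cuts prohormones, had a level of 0.706 at day 3 and 2.23 at day 1 in the ase or phyl cells, against 39.6 and 27.4 in the others. amon, that prohormone convertase, had 0.0999 and 0.717, against 17.2 and 11.05.

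All 18 hormone and secretion genes listed were at least 2-fold lower in the ase or phyl cells with both libraries joined, where 18.7% of 5868 genes tested were. Within a library the count was 15 of 17 genes at the minimum level at day 3, where 28.2% of all genes were lower, and 15 of 16 at day 1, where 22.4% were. Among cells at or above the median depth of the class, where the median depths were 13556 UMIs in 13 ase or phyl cells and 12759 in 18 others, it was 13 of 18, with 1 higher and 17.1% of all genes lower.

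Of 14 Notch pathway genes, 5 were at least 2-fold higher in the ase or phyl cells, where 9.75% of all genes were. Only 1 of the 14 was lower, under the 18.7% of all genes that were. It was numb, which encodes an inhibitor of Notch. Dl, the Notch ligand Delta, had a level of 10.8 at day 3 and 5.42 at day 1, against 1.91 and 2.10 in the cells with neither. N, the receptor gene, had 5.81 and 4.50, against 0.656 and 2.03. Among the Enhancer of split genes, bHLH repressors switched on by Notch, E(spl)m8-HLH had 19.6 and 8.94, against 2.57 and 4.08. E(spl)mgamma-HLH had 1.79 and 2.07, against 0.0548 and 0.115, and E(spl)m7-HLH had 19.5 and 11.8, against 5.24 and 6.51. The pros level was 14.1 and 7.39 in the ase or phyl cells and 16.1 and 8.72 in the others, both differences under 2-fold.

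The ase or phyl cells were also deeper, with a median of 13194 UMIs against 7435, and a median of 48.2% of their counts lay in ribosomal genes against 29.7%. Their median deposited share of simulated doublets among neighbours was 0.201, against 0.357. Among cells at or above the class's median depth E(spl)m8-HLH was 12.9 against 2.62 and 7B2 was 2.33 against 24.0. The part of depth and of the ribosomal share was not tested. Of 8 enterocyte genes at the minimum level, 1 was lower and 0 were higher in the ase or phyl cells with both libraries joined. Of all genes, 18.7% were lower and 9.75% higher there. Within a library, 4 of 7 were lower at day 3, where 28.2% of all genes were, and 4 of 8 at day 1, where 22.4% were. At or above the median depth of the class 2 of 8 were lower and 1 was higher, where 17.1% and 12.2% of all genes were. The part of the enterocyte genes in the result was not tested.

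AstC was found in nearly all tap cells of the class. AstC was detected in 13 of 14 tap cells at day 3 and in 6 of 6 at day 1, against 4 of 15 and 5 of 26 cells without tap. Orcokinin, another peptide gene, was found in 13 of 14 tap cells at day 3 and in all 6 at day 1, at 157 and 186 UMIs per 10000. Dl had 18 UMIs in 2 of the 14 tap cells at day 3 and 0 UMIs at day 1. The tap cells were shallower, with a median of 6239 UMIs against 10953 in cells without tap. Their median share of counts in ribosomal genes was 27.6% against 47.7%, and in mitochondrial genes 4.03% against 2.28%. In the authors' table, 19 of the 20 tap cells carried a label transfer score above 0 for Tk+EE, against 5 of the 41 without tap. The part of these in the result was not tested.

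The 9 Poxn cells up to the median depth all held CCHa1, a further peptide gene. CCHa1 was detected in 4 of 4 at day 3 and 5 of 5 at day 1, at levels of 67.2 and 82.3 per 10000. All AstC+EE cells, these Poxn cells included, averaged 18.3 and 25.8. The cells without Poxn were not set apart for CCHa1, so it cannot be called particular to Poxn cells. CCHa2 was found in 0 of the 4 Poxn cells at day 3 and in 5 of 5 at day 1, at 902 per 10000. AstC was found in part of the Poxn cells too, with 1493 and 1 UMIs at day 3 and 2022 and 2134 at day 1. A Poxn cell of day 3 without AstC held 166 UMIs of Tk.

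Between the ages, phyl alone of the 9 genes passed 2-fold in enteroendocrine cells of both classes joined. Its level was 0.0466 at day 3, against 0.247 at day 1. The log2 difference was -1.24; 2.96% of 5738 genes were lower by this much and 3.17% higher. That is 4 UMIs in 4 of 59 cells against 15 UMIs in 12 of 55 cells, and the count of genes past 2-fold was 0 of 9 in the deposited depth-corrected counts of all cells. After each cell was thinned to 4000 UMIs, phyl was left in 1 of 26 AstC+EE cells at day 3 and 2 of 30 at day 1. The next in size were sc at -0.84, tap at 0.64, pros at 0.63, Poxn at -0.62 and robo2 at 0.54 on the log2 scale, all under 2-fold. Within AstC+EE cells alone, tap at 1.25 and robo2 at 1.06 were higher at day 3, against 9.54% of 5841 genes. There phyl at -1.43 was lower, against 6.47%. The ribosomal shares of these cells, 30.6% at day 3 and 47.3% at day 1, differed between the libraries too, and their part was not tested. Within Tk+EE cells 0 of the 9 passed 2-fold, where 8.74% of 5436 genes were higher and 7.4% lower, and the widest was robo2 at -0.76. In ISC1 and ISC2 it was 0 of 9 as well; 0.127% of 4708 genes were higher and 0.297% lower in ISC1, and 0.172% of 4078 were higher and 0.736% lower in ISC2.

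Markers of enterocytes and visceral muscle, and genes of neurons, also differed between the libraries in enteroendocrine cells. Of 8 enterocyte genes at the minimum level, 5 were at least 2-fold lower at day 3, where 2.96% of all genes tested were. Their median log2 difference was -1.10, against a median of 0.0096 over all genes tested. The part of this in the values of phyl was not tested. Of 6 visceral muscle genes, 1 reached the minimum level: up, a troponin gene, was higher at day 3, at 0.319 against 0.0842 at day 1, a log2 difference of 1.19 (13 UMIs in 8 of 59 cells against 2 in 2 of 55). Mlc2 had 2 UMIs at day 3 and 0 at day 1, wupA had 0 and 2, and Mhc, Act57B and Tm2 had 0 UMIs in both libraries. The neuron genes elav, nSyb and brp had their highest class levels in the enteroendocrine classes. Of these 3 genes, 1 was at least 2-fold higher at day 3, nSyb, at 3.01 against 1.39, where 3.17% of all genes tested were higher. The median log2 difference was 0.99 over the 3, and repo of glia had 0 UMIs. Their part in the values of the regulators was not tested.

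Stem cells held few UMIs of 7 of the 9 regulators. Over ISC1 and ISC2, at least 1 of pros, sc, ase, phyl, tap, Poxn and mirr was found in 86 of 319 cells at day 3, 27.0% (interval 22.2 to 32.2), while the day 1 library had 149 of 652, 22.9% (19.7 to 26.3). The median depth of these cells was 19582 UMIs at day 3 and 18099 at day 1. In enterocytes, apEC and mEC together, it was 4 of 27 cells at day 3, 3 of them with mirr, and 0 of 29 at day 1, at median depths of 10461 and 11724. In EB1, at depths of 23468 and 22537.5, it was 1 of 70 and 12 of 322. Thinned to 4000 UMIs, the share was 9.09% of stem cells at day 3 and 6.60% at day 1, against 1.43% and 1.24% of EB1 cells. EC-like cells had 16 of 123 and 58 of 357 at their own depth, and 4.88% and 7.30% when thinned. In apEC and mEC together the thinned share was 11.1% (3 of 27) at day 3 and 0% (0 of 28) at day 1. So the share was not particular to the stem cell labels.

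Most of these were sc cells. sc was found in 51 of 190 ISC2 cells at day 3, 26.8% (20.7 to 33.7), while day 1 had 80 of 358, 22.3% (18.1 to 27.0). ISC1 had 24 of 129 at day 3, 18.6% (12.3 to 26.4), and at day 1 had 49 of 294, 16.7% (12.6 to 21.4). In EB1 cells, which were deeper, it was 0 of 70 at day 3 and 2 of 322 at day 1. EC-like cells had 12.2% (15 of 123) and 14.8% (53 of 357), so sc was not particular to the stem cell labels. The intervals of day 3 and day 1 overlapped in each of these classes, and so did those of ISC2 and ISC1 in each library.

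sc-positive ISC2 cells held more Dl than the ISC2 cells with none of the 7 genes. The Dl level was 3.72 at day 3 (51 cells) and 5.92 at day 1 (80 cells), against 1.58 (133 cells) and 2.80 (272 cells). Their median depths were 20208 and 16109.5, against 18833 and 16678. Across the 20 combinations of class and library, Dl was also the gene whose log2 level followed sc most closely among 4313 genes compared, with a Pearson r of 0.85. All 20 points come from 2 libraries, and this is a description.

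ase and phyl marked a rarer set of cells, most of them in ISC1. ase was found in 3 of 129 ISC1 cells at day 3 and 5 of 294 at day 1, and phyl in 0 of 129 at day 3 and 10 of 294 at day 1. In ISC2, ase had 0 of 190 and 1 of 358 cells, and phyl 0 of 190 and 2 of 358. Up to the median depth neither gene had a UMI in EB1, EB2, EB3, EC-like, apEC or mEC cells of either library; above it, each was found in 1 EB1 cell at day 1. For phyl in ISC1 the share of cells with a UMI was 0% at day 3 (0 to 2.82) and 3.40% at day 1 (1.64 to 6.17), and these intervals overlapped. Including cells above the median depth, phyl was found in 1 of 625 stem cells at day 3 and 16 of 951 at day 1.

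pros was found in 10 of 319 stem cells at day 3, 3.13% (1.51 to 5.69), while day 1 had 14 of 652, 2.15% (1.18 to 3.58). All 10 at day 3 held a single UMI. At day 1, 5 cells held more than 3 UMIs, 4 of them in ISC1, with 11, 11, 8 and 4 UMIs, and 1 in ISC2 with 6. In EB1 the share was 1.43% at day 3 and 1.55% at day 1, with no cell above 1 UMI. Thinned to 4000 UMIs, pros was left in 0 of 319 stem cells at day 3 (interval 0 to 1.15%), while day 1 had 8 of 652, 1.23% (0.531 to 2.40), and these intervals overlapped. The UMI counts cover 319 of 625 stem cells at day 3 and 652 of 951 at day 1.

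**Figure D4:**
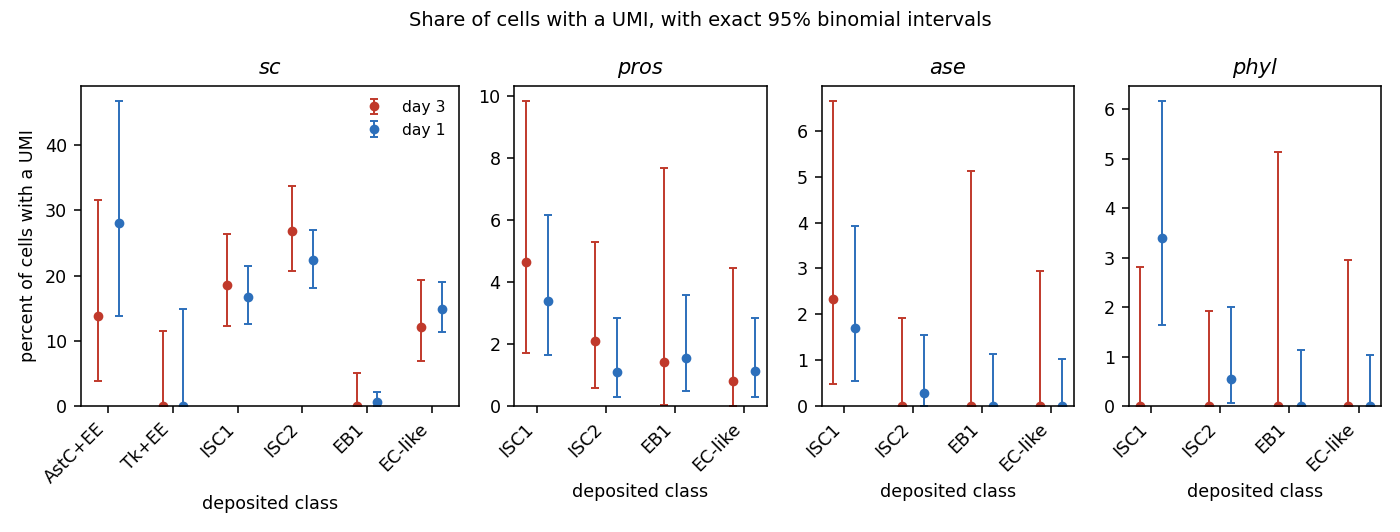
Percent of cells with a UMI of sc, pros, ase and phyl in the larger classes, day 3 (red) left of day 1 (blue); bars are exact 95% binomial intervals, EB2, EB3, apEC and mEC with 6 to 37 cells are left out, and so are the enteroendocrine classes except for sc. sc spans ISC1, ISC2 and EC-like cells and is near 0 in EB1, while ase and phyl are seen in ISC1.

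The genes coincided in single stem cells. Over all 1576 stem cells of both libraries, pros was found in 40, ase in 13 and phyl in 17. pros and ase shared 9 cells, which are 69.2% of those with ase and 22.5% of those with pros. pros and phyl shared 6, and ase and phyl shared 4. Of the 35 stem cells with pros, ase or phyl up to the median depth, 3 are described here, chosen after their values were seen. The cell with the most of the 7 genes was an ISC1 cell of the day 1 library with 15147 UMIs, which held 1 UMI of pros, 1 of ase, 2 of phyl and 1 of mirr. Another of that library and class, with 9148 UMIs, held 11 of pros, 1 of sc, 2 of ase, 4 of nerfin-1, a zinc finger gene of neural precursors, and 12 of Dl. In the authors' table this cell had a label transfer score of 0.066 for AstC+EE. No other stem cell with pros, sc or ase up to the median depth had one above 0. A further cell of that library and class, with 21531 UMIs, held 8 of pros, 3 of phyl and 8 of Dl.

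Of 7 enteroendocrine hormone and secretion genes looked at in these cells, a part of the 18 listed, 6 had no more than 1 UMI in a cell. Of these 35 stem cells, 0 held a UMI of AstC, 7B2 or Rab3, 1 held a UMI of Tk, 3 held 1 UMI each of IA-2, 5 held 1 UMI each of NPF, and tap and Poxn were at 0 in all 35. The other one, nrv3, a sodium pump subunit gene, was found in 6 of the 35, with 10, 6, 4, 2, 2 and 1 UMIs, all ISC2 cells. Over all ISC2 cells it was found in 78 of 190 at day 3 and 151 of 358 at day 1. Other genes of the list were present in stem cells. Phm and svr had levels of 0.322 and 0.536 in ISC1 cells with ase or phyl, both libraries joined. In ISC1 cells with none of the 7 regulators they had 0.351 and 0.287, both differences under 2-fold. NPF, by comparison, had levels of 1389 per 10000 at day 3 and 1818 at day 1 in Tk+EE cells. Without stem cells that held AstC, Tk, IA-2 or 7B2, an alternative chosen after the data were seen, the share with at least 1 of the 7 genes was 24.7% at day 3 (66 of 267 cells) and 22.7% at day 1 (140 of 617 cells).

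The ISC1 cells with ase or phyl stood apart in the Enhancer of split genes. There were 16 of them, 3 at day 3 and 13 at day 1, set against 331 ISC1 cells with none of the 7 genes, 100 at day 3 and 231 at day 1. E(spl)m8-HLH was detected in 2 of 3 at day 3 and 13 of 13 at day 1, against 6 of 100 and 13 of 231. Its level was 1.80 at day 3 and 4.89 at day 1, against 0.0705 and 0.0605. E(spl)mgamma-HLH was detected in 2 of 3 and 13 of 13, against 8 of 100 and 24 of 231, at levels of 8.28 and 6.67 against 0.118 and 0.0638. E(spl)m7-HLH had levels of 1.33 and 2.92, against 0.544 and 0.273.

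With both libraries joined, these 3 of 14 Notch pathway genes were at least 2-fold higher, where 6.38% of 5033 genes tested were. klu, a zinc finger gene of enteroblasts, was the 1 that was lower, at 0.732 against 1.61, where 5.15% of genes were. E(spl)mbeta-HLH, with 4.69 against 6.88, E(spl)m3-HLH, with 2.02 against 2.27, and E(spl)malpha-BFM, with 3.29 against 3.40, were under 2-fold. Dl, with 3.33 against 1.76, was also under 2-fold; at day 3 it had 1.45 against 1.55, and at day 1 it had 3.76 against 1.86. N had 6.57 against 4.14. elav, a gene of neurons, had 1.01 against 0.212. Of 8 enterocyte genes at the minimum level, alphaTry and LManII were higher, at 1.30 against 0.489 and at 0.209 against 0.0017; their part in the result was not tested. The ase or phyl cells were shallower here, with a median of 14503.5 UMIs against 20181, the reverse of the AstC+EE class, and their ribosomal share was 50.1% against 52.4%. In the ISC1 cells under the class's median depth, E(spl)m8-HLH was 4.58 against 0.0801.

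**Figure D5:**
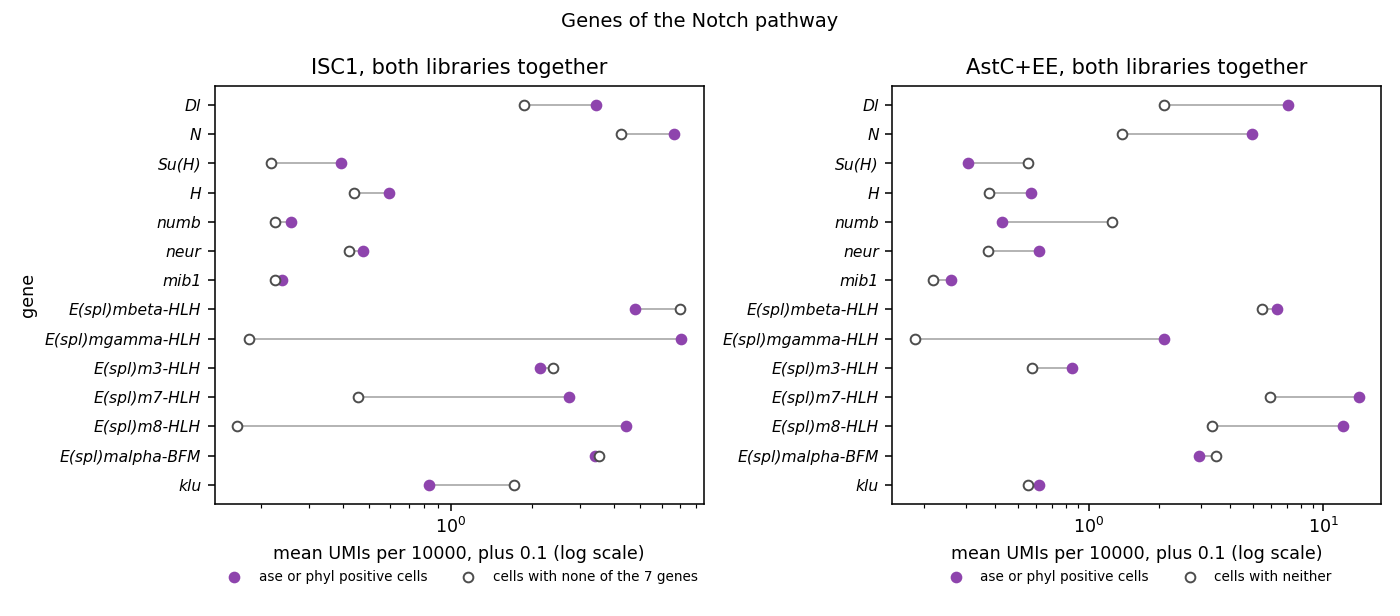
Mean UMIs per 10000, plus 0.1, on a log axis for 14 genes of the Notch pathway in cells with ase or phyl (filled) and in ISC1 cells with none of the 7 regulators or AstC+EE cells with neither gene (open), both libraries joined. E(spl)m7-HLH, E(spl)mgamma-HLH and E(spl)m8-HLH lie furthest apart in ISC1, and Dl and N are further apart in AstC+EE than in ISC1.

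Notch pathway genes also differed between AstC+EE and Tk+EE as classes. Of the 14 Notch pathway genes, 8 were at least 2-fold higher in AstC+EE in both libraries and 0 lower, against 7.36% and 3.24% of all genes tested. E(spl)m8-HLH had 5.50 and 5.90 in AstC+EE cells at day 3 and day 1, and 0 UMIs in Tk+EE cells of both libraries. Dl had 3.43 and 3.35, against 0.0136 and 0 in Tk+EE cells. Among other transcription factors of enteroendocrine subtypes, dac, drm and fkh were higher in AstC+EE and Ptx1 was lower, so 3 of 6 genes at the minimum level were higher and 1 lower, against the same shares. nerfin-1 was found in AstC+EE cells at 0.211 and 0.302 and had 0 UMIs in Tk+EE cells. The daughterless gene da, whose product pairs with proneural factors, was under 2-fold between the classes, and so was emc, which encodes their inhibitor.

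By likeness of level over the 20 combinations, pros was closest to Sytbeta, tap and CG18265, each with a Pearson r of 0.99 or 1.00. tap was closest to Ca-alpha1T, CG4577 and Sytbeta, each at 1.00, and mirr to CG4991, Tsp42Ej and DopEcR, at 0.96, 0.96 and 0.96. After Dl, sc was closest to E(spl)m7-HLH at 0.80 and jumu at 0.79. robo2 was closest to CG34401, RpL32 and RpS13, between 0.95 and 0.96. For ttk the closest, CG9630, had 0.90, and 0.66 over the 15 combinations with at least 20 cells. ase, phyl and Poxn stayed under the minimum level of 0.5 per 10000 and were not compared.

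By the Ensembl annotation of BDGP6, sc (X, 396060 to 397497, plus strand) and ase (X, 460747 to 463176, plus strand) both lie under CG32816 on the other strand. CG32816 had 1 UMI in AstC+EE, 1 in EB1 and 2 in EC-like cells and 0 in the other classes. Poxn (2R, 15826693 to 15835055, minus strand) overlaps tun on the other strand, which had levels of 0.269 at day 3 and 0.136 at day 1 in AstC+EE cells and was found in ISC1, ISC2 and EB1 cells too. pros (3R, 11328480 to 11407627, plus strand) and robo2 (2L, 1380086 to 1420453, minus strand) each overlap a noncoding gene on the same strand and others on the opposite strand. phyl (2R), ttk (3R), tap (3L) and mirr (3L) overlap no annotated gene. Whether counting used the strand is not given in the sources used here, so reads of overlapping genes may not be told apart.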

How the data were processed

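Per the submitters' processing notes, Cell Ranger 6.0.1 and the build BDGP6 were used; cell filters are not given in the sources used here. The authors deposited a matrix of 9607 genes in 4184 cells as the natural log of 1 plus a whole depth-corrected count. A deposited cell table gave each cell's UMI count, its class, the percent of counts in ribosomal genes, and the fraction of simulated doublets among neighbours. The authors' score columns of corrected totals equalled the sum of the matrix in all 4184 cells.

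The depth correction was inverted with 3 fitted parameters per gene, for cells up to the median depth. The rebuilt total over the deposited total had a median of 1.01. No whole UMI count gave the deposited value of NPF in 18 cells or of Orcokinin in 6, and the nearest count was used there. Tested on simulated data for day 3 over day 1 in enteroendocrine cells (9607 genes), detection was right in 99.97% of values, and a log2 difference of 2 was measured as 1.94, of -2 as -1.68. A log2 difference of 1 passed 2-fold in 44.7% of genes, and of -1 in 29.2%. These differences equal the call limit, so many fall under it by construction. Differences were put only into genes with a level of at least 0.5 per 10000 in enteroendocrine cells joined. Counts were drawn around 1 mean for both classes. The recovery thus does not cover sc, ase, phyl, ttk and Poxn, which lay under that level, or genes that vary between these cells, such as tap and mirr. The simulation was corrected with the same formula, so it cannot show that this formula is the authors' own. A call is a 2-fold ratio of means, 0.1 per 10000 added, among genes whose mean reached 0.1. Shares were also computed after thinning to 4000 UMIs. No test was possible with 1 library per age.

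All 9 genes are named. Besides them, genes of 12 gene lists are named where a result turns on them, and for each gene with a mean of at least 0.5 per 10000 the 3 genes most alike by Pearson r. The genes and lists were chosen with earlier results of these data known. ac, l(1)sc, sens, robo3 and He were not analysed here. Python 3.11.15, numpy 2.4.6, pandas 2.3.3, scipy 1.17.1, numba 0.67.0 and matplotlib 3.10.9 were used.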

Additional observations from a re-analysis of the deposited data

How the results depend on the processing

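The count of 7 of 9 genes highest in an enteroendocrine class was the same under each alternative run. The count of genes higher in AstC+EE than in Tk+EE cells, 3 as reported, was 2 (sc and ase) with deposited depth-corrected counts of all cells and 4 with summed counts, with phyl added. It was also 4 without the highest cell, as sc, ase, ttk and robo2, and 0 with a pseudocount of 1. Between day 3 and day 1 the count, 1 as reported, was 0 with the deposited depth-corrected counts of all cells and 0 with a pseudocount of 1. The share of stem cells with at least 1 of the 7 genes was 9.09% at day 3 and 6.60% at day 1 when thinned to 4000 UMIs. It was 14.5% and 11.2% when thinned to 8000 UMIs, and 7.52% and 5.37% when at least 2 UMIs of 1 gene were asked for. A larger pseudocount and fewer UMIs lower these values by construction. Of the log2 ratios of single genes under these alternatives, 93 stayed within an exact counting interval, widened to hold the reported ratio. Another 15 lay outside it, and 0 changed sign when called. For genes with 0 UMIs in Tk+EE cells this interval has no upper end, so no higher value could fall outside. Leaving out stem cells with AstC, Tk, IA-2 or 7B2 was chosen after seeing the data. No paired analysis was possible because each age had 1 library. The values for sc, ase, phyl and Poxn rest on few UMIs, and the limits given for 0 cells are on cells with a UMI, not on cells that express a gene.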
